A study of Mus musculus with 6 samples.

Results

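The Ifi200 genes are a mouse gene family, also called the p200 or PYHIN family, whose members lie side by side on distal chromosome 1 and are induced by interferon. RNA-seq of cell-sorted peritoneal macrophages (PMs) was used to compare 8 of them, Ifi202b, Ifi203, Ifi204, Ifi207, Ifi209, Ifi211, Mndal and Aim2, between diseased-BWF1 mice and control mice. They were taken by symbol from a list, and the counts of all their transcript records were summed. All 8 had counts in every mouse, and all 8 were among the 10502 genes tested, out of 32875 genes with a matched record. The annotation places 14 genes of the family in the region, of which 12 have a row in the count tables. The diseased-BWF1 mice (labelled Lupic, n = 3) were female F1 offspring of New Zealand Black and New Zealand White parents, 31, 31 and 34 weeks old. These animals develop a lupus-like disease, and here they had antibodies to double-stranded DNA and severe proteinuria. The control mice (n = 3) were female New Zealand White x BALB/c F1 animals, 33, 33 and 30 weeks old, that are not prone to lupus. Both groups therefore share the New Zealand White parent, and the labels name no treatment. Disease and the other parental strain (New Zealand Black or BALB/c) cannot be told apart in this design, also for the alleles of the Ifi200 genes themselves. The PMs were resident cells sorted by surface markers that include F4/80 and CD11b, with 1 library per mouse.

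Proteins of the family typically join a pyrin domain, which binds other proteins, to a HIN domain, which binds DNA, and several of them sense DNA in the cytosol or the nucleus. Aim2 assembles an inflammasome on cytosolic DNA through the adaptor Pycard and caspase-1, and p204, the product of Ifi204, takes part in DNA sensing through Sting1. The product of Ifi202b, p202, has no pyrin domain and can keep Aim2 from forming its inflammasome, and the gene lies in Nba2, a lupus susceptibility interval of New Zealand Black mice.

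Depth was modest, with 3629901 to 5003360 counts per mouse, of which 89.1% to 93.0% lay on genes, and 3 counts correspond to 0.652 to 0.889 CPM, the count scaled to the library total on genes. Only counting error enters this floor. The 15 markers of peritoneal macrophages were all tested, 0 of them was called, and they summed to between 57036 and 75719 CPM in each mouse. B cell markers summed to 3.69 to 8.92 CPM and T cell markers to 0.304 to 3.25 CPM. Dendritic cell markers summed to 44.8 to 85.1 CPM in control mice, against to 9.49 to 18.9 CPM in diseased-BWF1 mice, a difference carried by Cd209a. The only other tested marker of that list, Zbtb46, had 19 to 47 counts and a log2 fold change of 0.41 (edgeR adjusted p 0.653), and Flt3, Clec9a and Itgax had at most 12 counts in any mouse. The monocyte marker Ly6c2 had at most 1 count in any mouse. The part of these shifts in the values below was not tested. In sorted bulk cells, fewer cells of a type and less RNA per cell cannot be told apart.

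The family occupies chr1:173349547-174031755 in the GRCm38.p6 build, the build named in the submitters' processing notes. In order along the chromosome, the RefSeq annotation places Aim2 at chr1:173349547-173466040, Ifi209 at chr1:173630859-173647928, Ifi207 at chr1:173723424-173741831, Ifi204 at chr1:173747293-173767069, Mndal at chr1:173857215-173880382, Ifi211 at chr1:173896339-173913087, Ifi203 at chr1:173920400-173942866 and Ifi202b at chr1:173962569-173982844. All 8 are protein-coding. Other genes of the family, Ifi206, Ifi214, Ifi213, Ifi208, the pseudogene Ifi203-ps and Ifi205, lie between or beside them.

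The genes arose by duplication, and promoters and coding exons of some members resemble each other closely. RefSeq promoters, from 250 bases before to 50 bases after an annotated start, matched 12 genes of the family and 7 members. They were searched on both strands for GAAA followed, after a gap of any 2 bases, by a second GAAA, the core of an interferon-stimulated response element. It was present in 9 of the 12 family genes and in 4 of the 7 members, compared with 3.99% of 27025 genes with a promoter. The stretches with the core, or the nearest match to it, are shown because they differ between members with the core and Ifi209, which lacks it by 1 base. Capitals mark the core, and all are RefSeq sequences of the reference strain, not of the strains studied.
Ifi207, chr1:173741821-173741870, minus strand: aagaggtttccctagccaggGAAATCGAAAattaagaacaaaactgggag
Mndal, chr1:173880194-173880243, minus strand: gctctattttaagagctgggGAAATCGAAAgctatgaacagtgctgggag
Ifi203, chr1:173942498-173942547, minus strand: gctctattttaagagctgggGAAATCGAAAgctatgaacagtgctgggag
Ifi211, chr1:173913054-173913103, minus strand: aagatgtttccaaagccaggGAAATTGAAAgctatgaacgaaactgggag
Ifi209, chr1:173630760-173630809, plus strand: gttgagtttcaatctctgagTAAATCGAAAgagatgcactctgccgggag
In the stretches of these 4 members the core began 35 to 41 bases before the start. Mndal and Ifi203 each have a second annotated promoter, of which that of Mndal held another match, 54 bases before its start, and that of Ifi203 held none. The Mndal and Ifi203 stretches were identical in 50 of 50 bases, while Ifi211 shared 35 and Ifi207 32 of the 50 with Mndal. Ifi202b and Aim2 had no match in this window. Ifi202b had the only match in the family to TTCNNNGAA, the core to which dimers of activated Stat proteins bind. This core is its own reverse complement and occurs in 9.55% of the 27025 genes with a promoter. A single match among the 12 family genes is close to that share. Capitals mark it, 148 bases before the start.
Ifi202b, chr1:173982964-173983012, minus strand: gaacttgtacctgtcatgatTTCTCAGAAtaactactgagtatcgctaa

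The libraries were sequenced with paired reads of 75 bases, so the share of each gene's 75-base sequences that also occurs in another gene shows where counts are uncertain. In the GENCODE vM21 transcripts, Aim2 and Ifi202b shared 0% of theirs with any other gene. Ifi207 shared 1.53%, Ifi203 5.71%, Mndal 9.94%, Ifi204 13.2% and Ifi209 23.1% of their sequences with other genes of the family. Ifi211 stood apart with 63.6%, of which most lay in Ifi205 (40.6% of Ifi211 sequences) and Ifi204 (23.0%). Counts of Ifi211 are therefore the least certain of the family, and those of Ifi202b and Aim2 are free of this limit in the reference transcripts, while further copies in the strains studied were not analysed here. One coding stretch shared by Mndal and Ifi203 is shown as the kind of sequence that no single read can assign.
Mndal, chr1:173875591-173875665, minus strand: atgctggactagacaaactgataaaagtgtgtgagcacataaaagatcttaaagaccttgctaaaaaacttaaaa
Ifi203, chr1:173937757-173937831, minus strand: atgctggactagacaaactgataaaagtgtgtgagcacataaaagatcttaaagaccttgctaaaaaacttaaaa

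**Figure D1:**
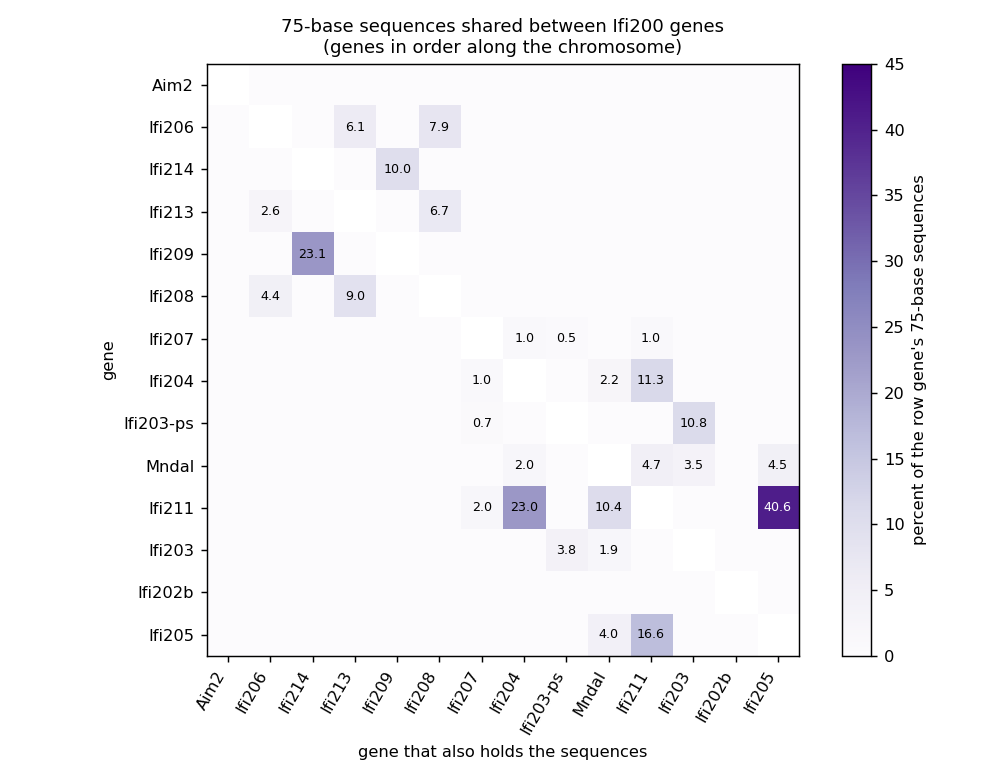
Each cell gives the percent of the row gene's distinct 75-base transcript sequences that also occur in the column gene, with the 14 family genes in order along the chromosome. The darkest cell is Ifi211 with Ifi205 at 40.6%, and the Aim2 and Ifi202b rows are empty.

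All 8 members were transcribed in PMs of both groups, and their levels spanned a wide range. As CPM per kilobase of the longest coding transcript, averaged over the 6 mice, Mndal was highest at 68.8, followed by Ifi207 at 50.5, Ifi204 at 46.4 and Ifi203 at 32.2. Ifi211 (20.7), Ifi209 (18.8) and Aim2 (17.1) formed a lower tier, and Ifi202b was the lowest member at 10.3. Neighbours in this order mostly did not differ beyond their spread. Ifi207 and Ifi204 overlapped in both groups, as did Ifi211, Ifi209 and Aim2. Ifi202b lay below Aim2 in every control mouse (3.36 to 8.20 against 15.7 to 20.7) but overlapped it in diseased-BWF1 mice (11.05 to 17.4 against 12.1 to 20.8). Outside the 8, Ifi205 averaged 8.52, Ifi213 4.12, Ifi208 1.57 and Ifi214 0.145 on the same scale.

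In the comparison of diseased-BWF1 with control mice, 0 of the 8 members was called by edgeR's quasi-likelihood test, which required a Benjamini-Hochberg adjusted p under 0.05 over all tested genes and a fold change of at least 1.5. Over all tested genes 1.22% were called, 0.819% lower and 0.4% higher in diseased-BWF1 mice. DESeq2 called 1 member, Ifi202b, as higher, where it called 1.27% of all tested genes higher and 2.29% lower. With no adjustment, 3 members had an edgeR p under 0.05 (Ifi202b, Mndal and Ifi203), compared with 13.2% of all tested genes (5.62% higher and 7.57% lower). The normalized counts of the groups did not overlap for 2 members, Ifi202b and Mndal, compared with 20.8% of all tested genes (9.58% higher and 11.2% lower), so this share is close to that background. The log2 fold change was above 0 in 3 members and below 0 in 5, with a median of -0.15 compared with 0.01 over all tested genes, of which 50.8% were above 0 and 49.2% below. The family therefore did not shift as a block, and its members with the smallest p lay on opposite sides. For 3 mice against 3, the exact two-sided permutation test of a single value cannot give a p below 0.1.

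**Figure D2:**
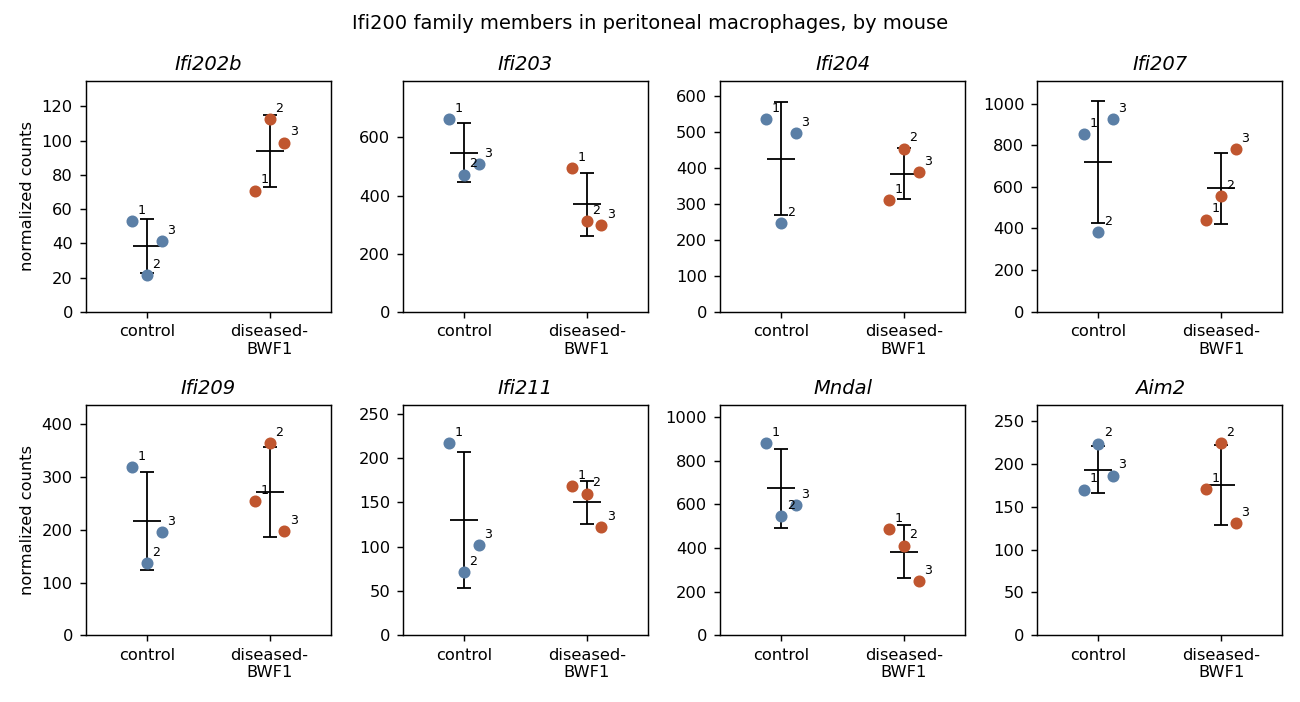
Normalized counts (DESeq2 size factors, linear axis from 0) of the 8 members in each mouse, with the mouse number beside each point and the mean with SD in black (n = 3 per group). For Ifi202b the 3 diseased-BWF1 mice sit at 70.8 to 112, above the 3 control mice at 21.6 to 53.0, and for Mndal they sit at 250.1 to 487, below 546 to 880.4.

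Ifi202b, the member without a pyrin domain, had the largest difference of the 8. Its normalized counts were 53.0, 21.6 and 41.3 in control mice 1, 2 and 3, and 70.8, 112 and 98.8 in diseased-BWF1 mice 1, 2 and 3. Every diseased-BWF1 mouse was above every control mouse. The means were 38.6 ± 15.9 and 94.0 ± 21.2 (SD, n = 3), a log2 fold change of 1.27 ± 0.33 (SE) with a 95% interval from 0.49 to 2.05. The edgeR adjusted p was 0.153 and the exact permutation p was 0.1, the smallest possible. The DESeq2 adjusted p was 0.0388, and it was 0.0253 without control mouse 1 but between 0.0662 and 0.334 with any other of the 6 mice left out, so the DESeq2 call was lost in 5 of 6 such fits. The value rests on few reads, 21 to 64 counts in control mice, against 75 to 111 in diseased-BWF1 mice.

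Within the family, Ifi202b took a larger share in diseased-BWF1 mice. It held 1.35%, 0.994% and 1.32% of the counts of all Ifi200 genes in the control group, against 2.86%, 4.01% and 4.33% among diseased-BWF1 mice. The shares did not overlap, with an exact permutation p of 0.1. The same held for Ifi209, with 8.15%, 6.30% and 6.28% against 10.3%, 13.0% and 8.65%, although its normalized counts overlapped between groups. The shares of the other family genes overlapped. A share also rises where other family genes fall, and no background over all genes was computed for such shares. The inflammasome sensor Aim2, which p202 can hold back, showed no such separation of the groups. Aim2 had 169.6, 223 and 186 normalized counts in control mice, against 170.0, 224 and 131 in diseased-BWF1 mice, values that overlapped almost entirely. Its log2 fold change was -0.14 ± 0.22 (SE) with a 95% interval from -0.65 to 0.36 and an edgeR adjusted p of 0.826.

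Mndal and Ifi203, which lie on either side of Ifi211 and hold the same promoter stretch, both had lower values in diseased-BWF1 mice without reaching the call. Mndal, named for its likeness to the human myeloid nuclear protein MNDA, had 880.4, 546 and 596 normalized counts in control mice, against 487, 411 and 250.1 in diseased-BWF1 mice. The groups did not overlap, and control mouse 1 was the highest of all. The means were 674 ± 180.3 and 383 ± 121 (SD, n = 3), a log2 fold change of -0.82 ± 0.28 (SE, 95% interval -1.48 to -0.15) with an edgeR adjusted p of 0.271. Ifi203 had 662, 472 and 508 normalized counts in control mice, against 496, 313 and 299.5 in diseased-BWF1 mice. Here diseased-BWF1 mouse 1 lay between the control mice, so the groups overlapped. The log2 fold change of Ifi203 was -0.57 ± 0.23 (SE, 95% interval -1.12 to -0.02), with an edgeR adjusted p of 0.363. When the counts of the pair were summed as 1 feature, which does not depend on how shared reads were divided between them, the log2 fold change was -0.70 ± 0.25 (SE) with an edgeR adjusted p of 0.295.

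The remaining 4 members overlapped between groups and had adjusted p values of at least 0.750. Ifi204, the DNA sensor that acts through Sting1, had 534, 246 and 496 normalized counts in control mice, against 309.7, 453 and 388 in diseased-BWF1 mice (log2 fold change -0.15 ± 0.29, SE). Ifi207 had 852, 383 and 923 in control mice, against 443, 555 and 779.6 in diseased-BWF1 mice (log2 fold change -0.29 ± 0.35). In both genes control mouse 2 lay below the other control mice, and below every diseased-BWF1 mouse. Ifi209 had 319, 137 and 196 normalized counts in control mice, against 254, 365 and 198 in diseased-BWF1 mice (log2 fold change 0.32 ± 0.34). Ifi211 had 217, 71.0 and 102 in control mice, against 168, 160.0 and 122 in diseased-BWF1 mice (log2 fold change 0.20 ± 0.39). In Ifi209 and Ifi211 control mouse 1 was far above control mice 2 and 3, and the 95% intervals, -0.48 to 1.11 and -0.71 to 1.10, leave room for differences of more than 2-fold upward.

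**Figure D3:**
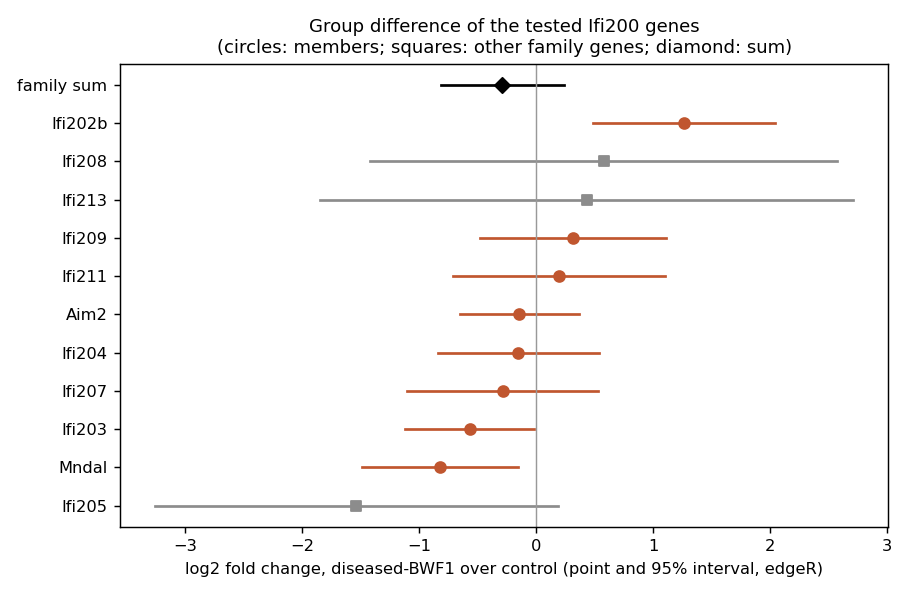
Log2 fold changes (diseased-BWF1 over control, edgeR) with 95% intervals for the 11 tested family genes and their sum. The intervals of Ifi202b (0.49 to 2.05), Mndal (-1.48 to -0.15) and Ifi203 (-1.12 to -0.02) leave out 0 before adjustment for the number of genes, and the others include it.

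Of the family genes outside the 8, Ifi205, whose product p205 also regulates Pycard, had 121, 50.4 and 60.9 normalized counts in control mice, against 18.9, 57.7 and 4.03 in diseased-BWF1 mice. Diseased-BWF1 mouse 2 fell within the control range, and the log2 fold change of -1.54 ± 0.73 (SE) had an edgeR adjusted p of 0.439. Ifi213 and Ifi208 were low and uneven, with 9.19 to 101 and 3.03 to 46.6 normalized counts per mouse, and both were highest in control mouse 1 and diseased-BWF1 mouse 2. Ifi214 had at most 5 counts in any mouse and was not tested. Summed over the family, normalized counts were 3921, 2173 and 3127 in control mice, against 2472, 2803 and 2284 in diseased-BWF1 mice. The group ranges overlapped, the log2 fold change was -0.29 ± 0.22 (SE, 95% interval -0.82 to 0.24) and the edgeR adjusted p was 0.643. This sum does not depend on how reads were divided between the family genes it covers. Ifi206 and Ifi203-ps, which had no matched record, are not in it.

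Single transcript records were read next, because the deposited counts are given per record and the members have several. Of 43 member records, 34 had counts and 23 were tested among 20332 records. None of the 23 was called by edgeR, against 0.0639% of all tested records, and DESeq2 called 0 as well. An unadjusted edgeR p under 0.05 was found for 3 of them, compared with 6.3% of all tested records. These were NM_001302651.1 and XM_006496671.3 of Ifi203 and XM_011238736.2 of Mndal, all lower in diseased-BWF1 mice.

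The Ifi203 records did not move together. NM_001302651.1, which GENCODE ties to a transcript of 3482 bases, had 362, 228 and 327 normalized counts in control mice, against 206, 129 and 87.7 in diseased-BWF1 mice, with no overlap (log2 fold change -1.12, edgeR adjusted p 0.608). XM_006496671.3 had 218, 155 and 147 in control mice, against 83.1, 112 and 115 in diseased-BWF1 mice, also with no overlap (log2 fold change -0.75, adjusted p 0.596). XM_006496669.2 ran the other way, with 70.3, 62.8 and 33.3 in control mice, against 149, 71.9 and 87.7 in diseased-BWF1 mice (log2 fold change 0.89, adjusted p 0.930). As a share of Ifi203 counts, NM_001302651.1 averaged 55.8% ± 8.12 in control mice, against 37.3% ± 6.94 in diseased-BWF1 mice (SD, n = 3). The share of XM_006496669.2 averaged 10.2% ± 3.39 and 27.5% ± 3.90. Neither share overlapped between groups, each with an exact permutation p of 0.1. Over all members, 2 of 26 record shares did not overlap, compared with 9.74% of 15132 record shares of all genes, so the count is close to the background. Reads common to the records of a gene are divided by estimation, and strain differences from the reference can enter that estimate, so a shift in these shares cannot be told apart from a shift in mapping.

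**Figure D4:**
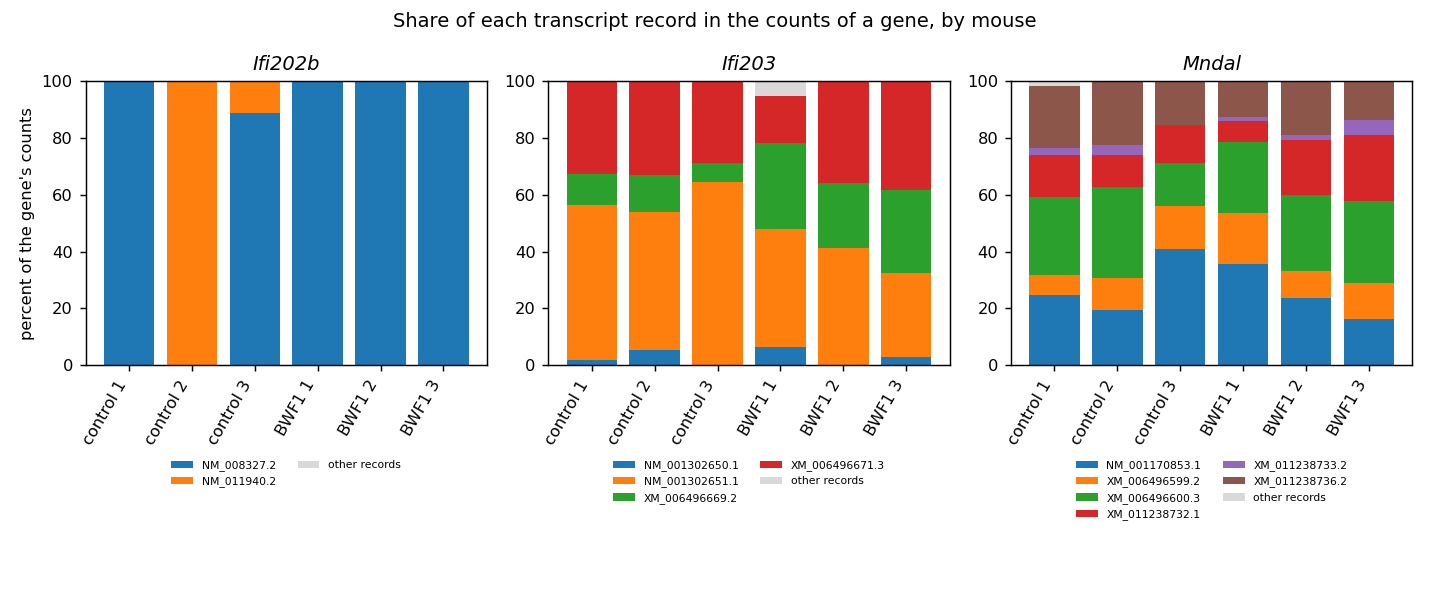
Stacked bars give the percent of a gene's counts on each transcript record in every mouse, for Ifi202b, Ifi203 and Mndal. The green Ifi203 record, XM_006496669.2, takes 10.2% on average in control mice, against 27.5% in diseased-BWF1 mice, and the Ifi202b counts of control mouse 2 all lie on the second record.

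Ifi202b has 2 records, and GENCODE ties both to 1 transcript. NM_008327.2 had 64, 0 and 32 counts in control mice, against 75, 111 and 98 in diseased-BWF1 mice, while NM_011940.2 had 0, 21 and 4 in control mice, against 0 in each diseased-BWF1 mouse. All Ifi202b counts of control mouse 2 thus lay on the second record, and none of those of the diseased-BWF1 mice did. Read by NM_008327.2 alone, whose control counts spread from 0 to 64, the log2 fold change was 1.64 with an unadjusted edgeR p of 0.261. The unadjusted edgeR p of the summed gene was 0.00608. The edgeR adjusted p of the record, 0.9997, was taken over all tested records and not over genes, so it cannot be set against that of the summed gene. The sum over both records, used above, avoids this split. The Mndal records kept similar shares in both groups, with XM_011238736.2 at 19.8% ± 3.85 in control mice, against 15.2% ± 3.33 in diseased-BWF1 mice (SD, n = 3).

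The members differed in how they varied from mouse to mouse. Correlations of log2 CPM over the 6 mice, given as descriptions of libraries that share depth and group, fell into sets. Ifi203 and Mndal, which hold the same promoter stretch, varied together (Pearson r = 0.92), and Mndal with Ifi205 (r = 0.89). Of their 75-base sequences, Ifi203 shares 1.87% with Mndal, and Mndal shares 3.45% with Ifi203 and 4.45% with Ifi205. Ifi213 varied with Ifi208 (r = 0.92). Ifi208 shares 9.04% of its 75-base sequences with Ifi213, and Ifi213 shares 6.73% with Ifi208. How far shared reads enter the correlations was not tested. Ifi204 and Ifi207, neighbours on the chromosome that share 1.0% of their 75-base sequences, had r = 0.87. Ifi209 varied with Ifi211 (r = 0.90) and with Ifi213 (r = 0.90), and shares no 75-base sequence with either. Ifi202b varied with Ifi209 (r = 0.71) and Ifi211 (r = 0.64) and against Mndal (r = -0.56) and Ifi203 (r = -0.61).

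Interferon-stimulated genes differed in level among mice within groups. The mean log2 CPM of 45 tested interferon-stimulated genes outside the family was 6.01, 4.96 and 4.92 in control mice 1, 2 and 3 and 5.57, 5.69 and 4.92 in diseased-BWF1 mice 1, 2 and 3. Control mouse 1 was the highest of the 6, and a low mouse was present in both groups. Of the 45 genes, 0 was called by edgeR or DESeq2, 30 had a log2 fold change above 0 and 15 below, with a median of 0.03, and the groups did not overlap for 3 (6.67%, compared with 20.8% of all tested genes). These 3 had the smallest p of the list. They were the antiviral tetherin Bst2 (log2 fold change -0.96 ± 0.27, SE, edgeR adjusted p 0.187), Ifi44 (-2.03 ± 0.76, 0.314) and Ifi35 (0.36 ± 0.16, 0.398).

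The family genes differed in how closely they tracked this mean, and no background over all genes was computed for these correlations. Over the 6 mice Pearson's r was 0.96 for Ifi213, 0.88 for Ifi211, 0.86 for Ifi209 and 0.83 for Ifi208. It was 0.49 for both Ifi205 and Mndal, 0.41 for Ifi204, 0.35 for Ifi202b and Ifi203, 0.13 for Aim2 and 0.02 for Ifi207. In the searched window the core of paired GAAA was present for Ifi213, Ifi211, Ifi208, Ifi205, Mndal, Ifi203 and Ifi207. It was absent for Ifi209, Ifi202b and Aim2, and Ifi204 had no matched promoter. Whether the core is related to this tracking was not tested. Control mouse 1, with the highest interferon mean, also had the highest value of the 6 mice for Ifi203, Ifi204, Ifi211 and Mndal. It did not for Ifi202b, Aim2, Ifi207 or Ifi209, of which Ifi209 was highest in diseased-BWF1 mouse 2.

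**Figure D5:**
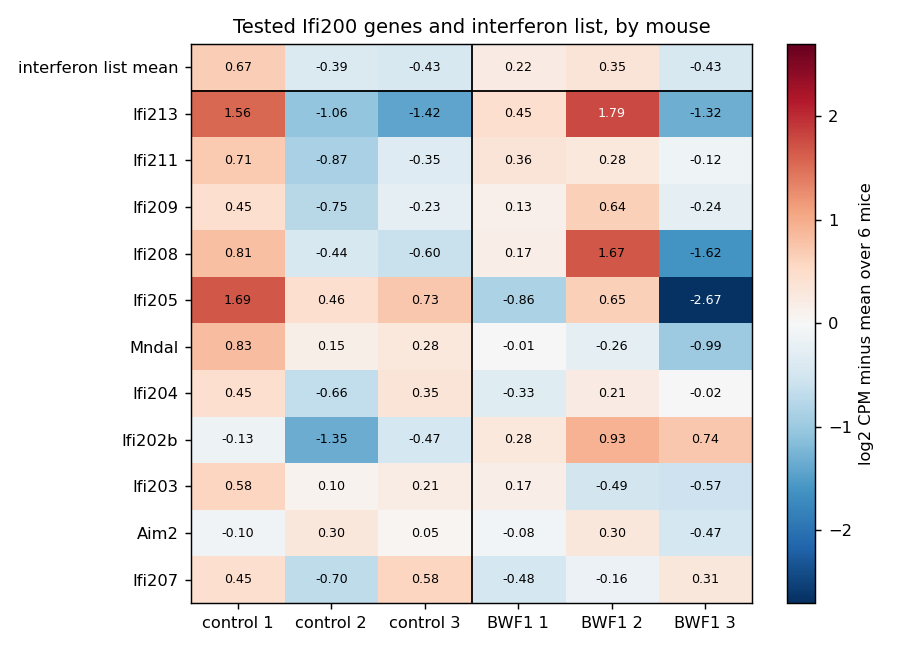
Log2 CPM of each tested family gene in each mouse, minus the gene's mean over the 6 mice, below the same for the mean of 45 interferon-stimulated genes. Genes are ordered by Pearson's r with the interferon mean, from Ifi213 (0.96) to Ifi207 (0.02). Ifi202b is above its mean in all 3 diseased-BWF1 mice and below it in all 3 control mice.

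Around the family's pathway, 26 of 28 listed genes of DNA sensing and the inflammasome were tested, 1 was called higher and 1 lower (over all tested genes 0.4% and 0.819%), 9 had a log2 fold change above 0 and 17 below, with a median of -0.12. Ikbke, a kinase downstream of nucleic acid sensors, rose from 317, 299 and 284 normalized counts in control mice to 621, 466 and 558 in diseased-BWF1 mice (log2 fold change 0.87 ± 0.14, SE, edgeR adjusted p 0.0437). Dnase2a, the lysosomal nuclease that degrades DNA of engulfed cells, fell from 410.4, 494 and 541 to 212, 227 and 219 (log2 fold change -1.14 ± 0.14, adjusted p 0.0192). DESeq2 also called both, with adjusted p of 9.44e-05 and 7.63e-08. In edgeR the Ikbke call was lost when any of the 6 mice was left out (log2 fold change 0.76 to 0.98, adjusted p 0.0586 to 0.167) or age was a covariate (0.0710), and the Dnase2a call when control mouse 2 or any diseased-BWF1 mouse was left out (-1.16 to -1.11, adjusted p 0.0627 to 0.0883). Curated records alone ended both calls (adjusted p 0.204 and 0.0537). Cgas, the cytosolic DNA sensor upstream of Sting1, had 53.0, 37.0 and 57.4 normalized counts in control mice, against 75.5, 81.0 and 60.5 in diseased-BWF1 mice, with no overlap and an edgeR adjusted p of 0.351. In this list the groups did not overlap for 8 genes (30.8%, compared with 20.8% of all tested genes). Pycard, the adaptor of Aim2, had a log2 fold change of -0.05 (edgeR adjusted p 0.914) and Casp1 of -0.45 (adjusted p 0.414).

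Of 89 annotated genes within 1500000 bases of the cluster, 13 were tested and 0 was called by edgeR or DESeq2, 7 with a log2 fold change above 0 and 6 below. The groups did not overlap for 3 (23.1%, compared with 20.8% of all tested genes). These were Cfap45 (log2 fold change -0.92 ± 0.21, SE, edgeR adjusted p 0.102), Dusp23 (-0.77 ± 0.23, 0.195) and Slamf9 (1.02 ± 0.35, 0.266). As in the family, the neighbours of smallest p lay in both directions.

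The genes outside the family most like each member over the 6 mice, by Pearson's r of log2 CPM among 10491 genes, were Arl14ep (r = 0.99) and Eml5 (0.98) for Ifi202b, and Rab4b and Parp8 (both 0.98) for Mndal. For Ifi203 they were Tmem9 (0.99) and Trappc12 (0.98), for Ifi204 Vrk3 and Gnl1 (both 0.99), and for Ifi207 Tle3 (0.98) and Zfp445 (0.97). For Ifi209 they were Ppif and Usp42 (both 0.98), for Ifi211 Pycrl (0.99) and the class I gene H2-Q4 (0.98), and for Aim2 Mtbp (0.998) and Ttc28 (0.98). Between 8 and 26 genes reached an r of 0.95 with a member, and with 6 points such values are common among this many genes.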

How the data were processed

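PMs of 3 control and 3 diseased-BWF1 mice were profiled by RNA-seq. Per the labels, the authors deposited 1 table per mouse of unnormalized whole-number read counts for 107193 RefSeq transcript records. The submitters' processing notes name Salmon 0.8.0, DESeq2 and GRCm38.p6. Salmon estimates counts, so the deposited whole numbers may have been rounded, and reads shared by paralogs are divided by estimation. Records were joined to genes by accession (45749 with the same version, 40709 with another version, 20735 unmatched and left out) and summed per gene. Genes were filtered with filterByExpr and tested with edgeR 4.0.16 (TMM, quasi-likelihood test, Benjamini-Hochberg over 10502 genes) in R 4.3.3. DESeq2 1.42.0 was an alternative and gave the size factors of the normalized counts. CPM on a log2 scale used a prior count of 2. The model was tested on simulated counts. Other alternatives were normalization, filters, a replicate block, age, robust dispersion, curated records alone and each mouse left out. The fit of Ifi203 and Mndal as 1 feature and the DESeq2 fits without each mouse were chosen after seeing the data. Sequences were read with Python from RefSeq promoters (GRCm38.p6) and GENCODE vM21 transcripts, with levels per kilobase by the longest coding GENCODE transcript. All members, the other family genes, records with 20 or more counts in a mouse, the most similar 2 genes of each member, and from each list the called genes or those of smallest p up to 3 were named by rule; Pycard and Casp1 were named after their values were seen. The members and lists were chosen with earlier results of these data known. Protein sequences were not used here. Some markers of the lists are not reported here.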

Additional observations from a re-analysis of the deposited data

How the results depend on the processing

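The direction and side of the threshold were kept in 116 of 120 values of single members under the alternatives. No member was called in the main fit, so keeping that side was likely beforehand and says little about the size of a difference. Ifi202b passed with DESeq2 alone (adjusted p 0.0388), which made 1 member called in place of 0. With a mouse left out, values changed sign for Ifi204 (-0.42 to 0.039, positive without control mouse 1), Ifi211 (-0.10 to 0.79, negative without control mouse 2) and Aim2 (-0.35 to 0.0297, positive without diseased-BWF1 mouse 3). The same held for Ifi213 (-0.58 to 2.19, and -0.00166 without control mouse 3) and Ifi208 (-0.64 to 1.29), both lowest without diseased-BWF1 mouse 2. The family sum kept its sign, from -0.48 to -0.08. Genes called higher numbered 42, and 133 with DESeq2, 89 with no filter, 27 with at least 10 counts in every library, 9 with curated records alone and 11 to 26 with a mouse left out. Genes called lower numbered 86, and 240 with DESeq2, 170 with no filter, 57 with at least 10 counts, 53 with age as a covariate, 7 with curated records alone and 10 to 30 with a mouse left out. The cause was not tested. With the replicate number as a block, 18 genes were called higher and 20 lower, 0 members were called, and Ikbke and Dnase2a were not (adjusted p 0.0903 and 0.0564). With this block the SE fell from 0.23 to 0.14 for Ifi203 and from 0.28 to 0.19 for Mndal (edgeR adjusted p 0.174 and 0.170). The correlations of deviations between mice of the same number were 0.12, 0.01 and 0.16, and 4 of 6 mice correlated best with their own number. These values do not settle whether the numbers pair the mice. Depth and 3 mice per group limit the family, as the intervals show, and no permutation p can pass 0.05 here. The edgeR and DESeq2 p-values set a group difference against the variation estimated from these mice, and do not extend to other crosses.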
